A study of Mus musculus with 8 samples.

Results

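The genes described here are 47 components of WNT signalling and planar cell polarity, taken by name from a list that was drawn up with earlier results of these data known. Shares of members called are therefore descriptions of the list. They cover ligands, the ligand secretion machinery, receptors, co-receptors, secreted inhibitors, nuclear effectors, feedback genes and polarity genes. All 47 were found among the 55487 gene identifiers of the count table. Of these, 41 had enough counts to be tested.

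The parental line was E14-Tg2a, mouse embryonic stem cells with the genotype WT, and the mutant line was E14-Tg2a 4D with the genotype Tbx1-/-. TBX1 is a transcription factor of the T-box family that acts in pharyngeal and cardiac progenitors. Both lines were differentiated in serum-free medium towards precardiac mesoderm and collected on day 6, with 4 biological replicates each. Differentiation is the only treatment that the labels give. Only line 4D represents the mutant genotype, so the genotype and other properties of that line cannot be told apart. RNA was measured by QuantSeq, which reads the 3′ end of each polyadenylated transcript. A count therefore does not scale with transcript length. Levels of different genes are compared below as CPM, but how fully the 3′ end of each gene is counted was not tested. Rankings and shares between genes therefore describe counted reads. CPM is the count scaled to the size of its library after normalisation between libraries. All levels are of RNA, and protein is not part of these data.

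WNT ligands are secreted lipid-modified proteins that bind Frizzled receptors together with co-receptors. With LRP5 or LRP6 the signal stabilises β-catenin, which joins LEF/TCF factors at target genes; with ROR or RYK receptors it acts on the cytoskeleton and on cell polarity without β-catenin. In the early heart field, canonical signalling promotes mesoderm formation and progenitor expansion and its inhibition favours cardiac differentiation, while WNT5A and WNT11 act in outflow tract progenitors. The planar polarity core, with VANGL, CELSR and PRICKLE proteins, orients cells within a tissue.

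Libraries held 3803561 to 6293907 counts, and an exact permutation test of the totals between the lines gave a two-sided p of 0.257 (n = 4 per line, smallest possible p 0.0286). Tbx1 had 22 to 65 counts in the parental libraries and 0 to 3 in the mutant libraries, at least 11.7-fold lower against a floor of 3 counts per library. Its edgeR adjusted p was 0.00432. Mutant library 4 stood apart, since 5.57% of all tested genes had 0 counts in it, against 0.279% to 0.663% in the other 7 libraries. Among the 41 tested members, 3 were at 0 there (Porcn, Dkk3 and Sp5) and none in any other library. Where leaving it out moved the log2 fold change of a described member by more than 0.1, the value without it is given too.

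The labelled cell type was checked against its markers. All 8 precardiac mesoderm and cardiac progenitor genes (Isl1, Nkx2-5, Hand1, Hand2, Gata4, Tbx5, Mef2c and Pdgfra) passed the filter. Their summed level was 1236 to 1546 CPM in the parental libraries and 1133 to 1335 CPM in the mutant ones, and 0 of the 8 differed at an edgeR adjusted p under 0.05, the rule by which a gene is called here. Of the 8, 7 had a negative log2 fold change, and Hand2 alone a positive one, of 0.40. All libraries of the lines were separate for 3 of the 8, beside 7.52% of all tested genes. Isl1 and Hand1 were lower and Hand2 higher in the mutant line. DESeq2 and limma-voom each called these 3 genes. The 5 pluripotency markers, of which 3 passed the filter on low counts, summed to 5.77 to 15.3 CPM over all libraries, with 0 called. The 6 erythroid markers summed to 112 to 166 CPM in the parental and 603 to 882 CPM in the mutant line. Of these, 3 were called higher, the globin genes Hba-x, Hbb-bh1 and Hbb-y. Gata1, Klf1 and Alas2, on low counts, overlapped between the lines, with edgeR adjusted p of 0.783, 0.635 and 0.796. The 8 endoderm markers summed to 221 to 347 and 203 to 235 CPM, with 6 tested and 2 called lower. The sum of 8 cardiomyocyte markers was 597 to 3514 CPM in the parental and 111 to 917 CPM in the mutant line. All 8 had negative log2 fold changes, of -1.65 to -1.05, and their libraries overlapped between the lines. Of these 8, edgeR called 0, but a replicate block gave 5 calls and 8 were called without the filter on low counts, and DESeq2 and limma-voom called 0. The 6 endothelial markers summed to 397 to 649 and 452 to 936 CPM, also with 0 called. The sum of 6 neural markers, 4 of them tested, was 38.3 to 44.4 and 27.0 to 42.0 CPM, with 0 called. No marker of these lists was at 0 in every library. The part of these cell types in the differences described below was not tested.

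The upstream sequences of 2 members are shown, Ror1 because it is a called gene and its promoter holds the core recognised by T-box factors, and Sp5 because it is a direct WNT target whose promoter holds LEF/TCF forms. Both are from RefSeq on GRCm38.p6 and cover the 250 bases before the annotated start, 5′ to 3′ on the plus strand. Ror1 spans chr4:100095541-100095790 and Sp5 spans chr2:70474673-70474922. Capitals mark the T-box core GGTGTG in Ror1 and LEF/TCF forms in Sp5, where the first match is CTTTGTT read on the opposite strand and the second is CTTTGAT.
Ror1: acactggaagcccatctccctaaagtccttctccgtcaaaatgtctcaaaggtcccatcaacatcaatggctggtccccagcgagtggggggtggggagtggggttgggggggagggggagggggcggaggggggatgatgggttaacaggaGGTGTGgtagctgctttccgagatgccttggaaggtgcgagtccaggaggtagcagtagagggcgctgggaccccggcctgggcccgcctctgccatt
Sp5: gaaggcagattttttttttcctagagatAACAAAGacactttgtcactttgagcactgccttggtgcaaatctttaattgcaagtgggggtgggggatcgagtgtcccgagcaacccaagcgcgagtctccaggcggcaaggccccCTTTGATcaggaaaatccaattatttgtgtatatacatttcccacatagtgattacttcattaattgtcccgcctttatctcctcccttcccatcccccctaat
Promoter entries were present for 32 of the 47 members, 42 promoters in all. Sfrp1 has no entry. The search covered both strands from 250 bases before to 50 bases after the start. The T-box core GGTGTG was found in 12 of these 42 promoters (28.6%), against 19.0% of all 32851 promoters of the same length. Its members were Wnt2b, Wnt3a, Wnt5b, Fzd10, Ror1, Frzb, Ctnnb1, Lef1, Tcf7, Nkd1, Sp5 and Vangl2. For the LEF/TCF forms, CTTTGAA was found in 1 of the 42 promoters and CTTTGAT was found in 3, while CTTTGTA was found in 1 and CTTTGTT was found in 4. At least 1 of these forms was present in 7 of 42 (16.7%), against 16.9% of all promoters. Members with such a LEF/TCF form were Wnt5b, Wnt11, Fzd7, Dkk1, Lef1, Tcf7l2 and Sp5. A match describes the letters in this window and is not evidence of binding.

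Across the members, 2 genes rose in the mutant line and 0 fell. The secreted inhibitor Sfrp1 rose 1.94-fold and the receptor tyrosine kinase Ror1 rose 2.33-fold. The p of the edgeR quasi-likelihood test was adjusted over all 13280 genes tested. The 2 called members are 4.88% of 41, against a background of 1.42% of all tested genes called in either direction and 0.745% called higher. No member fell where 0.67% of tested genes were called lower, although 3 members were lower and 5 higher at an unadjusted p under 0.05. These 8 are 19.5% of the members, beside 11.9% of all genes. For 3 members, Sfrp1, Ror1 and Fzd1, every mutant library was above every parental library, and such separation in either direction is 7.32% of 41 beside 7.52% of all genes. These shares lie near each other. The median log2 fold change of the members was -0.06, against 0.00 over all tested genes, and the median absolute value was 0.31 against 0.24. In bulk RNA, fewer cells of a type and less RNA per cell cannot be told apart.

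**Figure D1:**
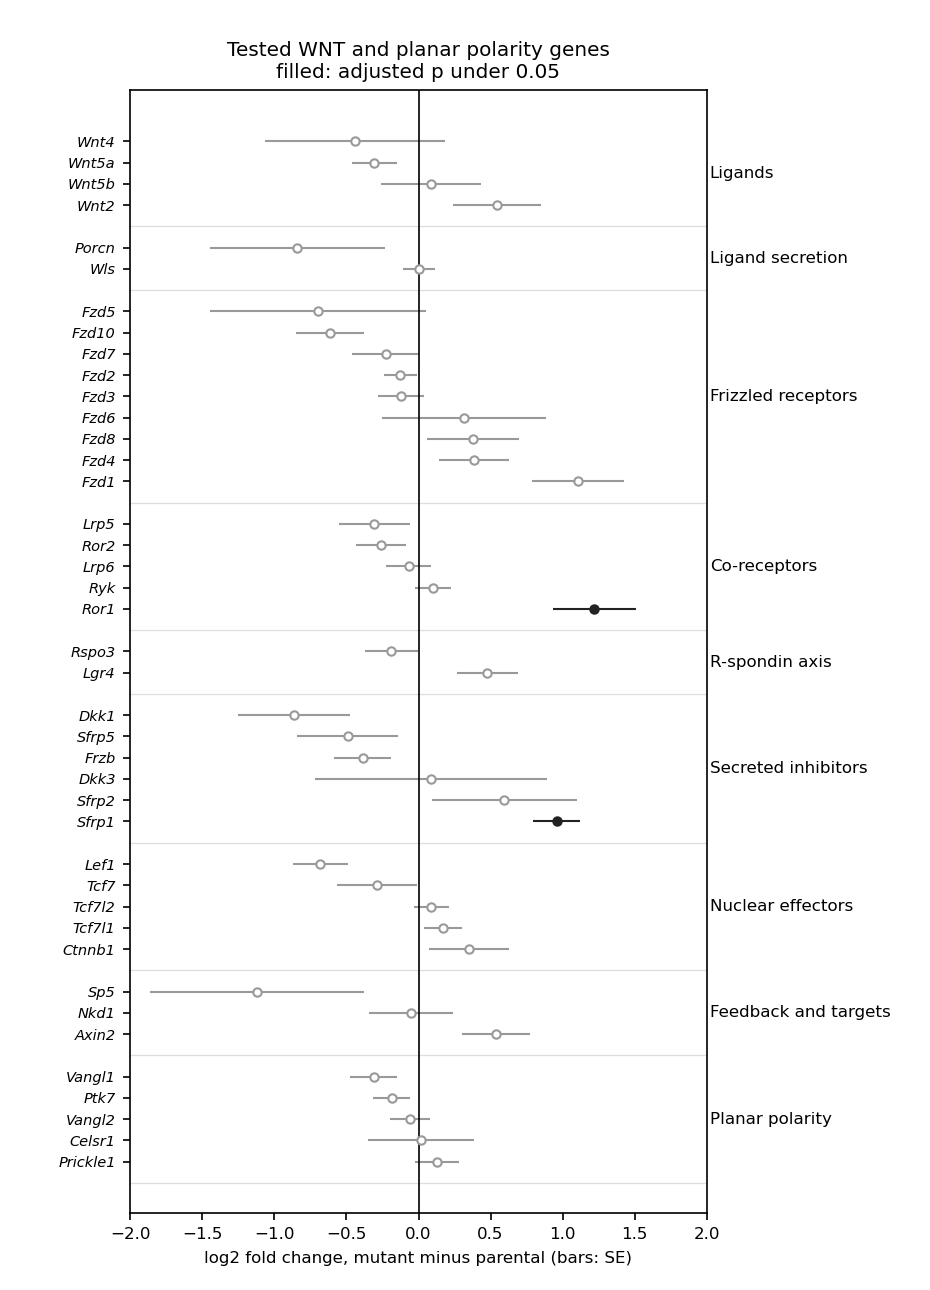
Log2 fold change (x axis, mutant minus parental) of the 41 tested members, grouped by role, with standard errors as bars and n = 4 libraries per line. The filled points are the called genes, Sfrp1 at 0.96 and Ror1 at 1.22; the open points lie on both sides of 0.

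**Figure D2:**
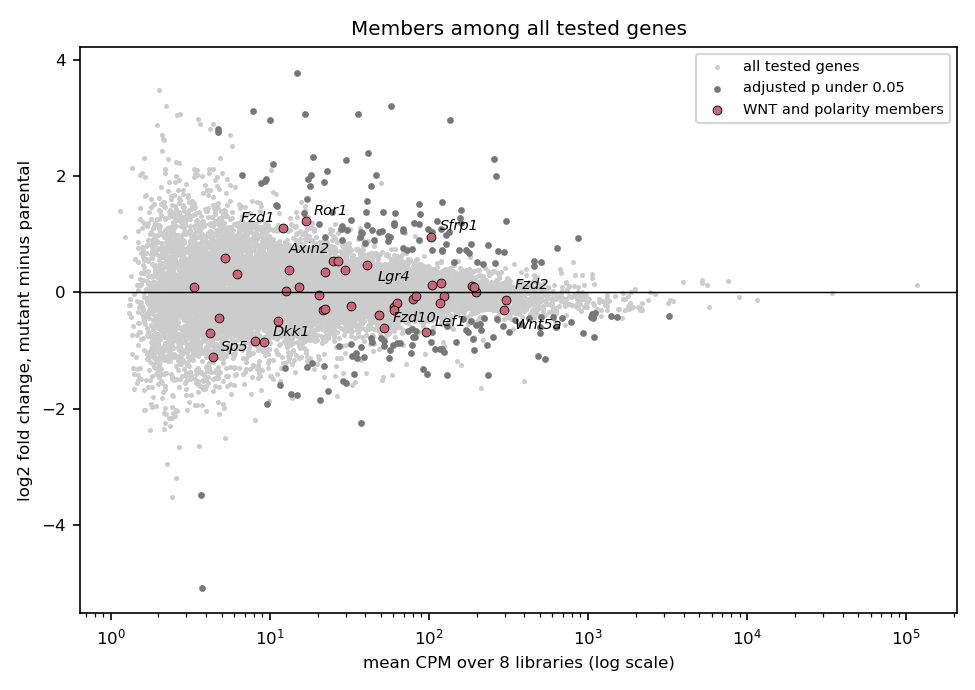
Log2 fold change against mean CPM (log scale) for all 13280 tested genes (light grey), the 188 called genes (dark grey) and the 41 tested members (red). Most members lie inside the grey cloud, and the most changed of them, Ror1 at 1.22 and Sp5 at -1.12, are within the range of all genes.

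Among secreted inhibitors, 1 of 6 tested members rose and 0 fell. SFRP proteins and FRZB carry a Frizzled-like domain and bind WNT ligands outside the cell, DKK1 blocks LRP5 and LRP6, and NOTUM removes the lipid from WNT. Sfrp1 (ENSMUSG00000031548.7, chromosome 8, 23411502 to 23449632, plus strand) had 57.8, 58.8, 72.1 and 94.0 CPM in parental libraries 1 to 4 and 127, 115, 153 and 154 CPM in mutant libraries 1 to 4. All mutant values lay above all parental values, with means of 70.7 ± 16.8 CPM over the parental and 137 ± 19.4 CPM over the mutant libraries (SD, n = 4). On the log2 scale the difference was 0.96 ± 0.16 (SE) with a 95% interval of 0.62 to 1.30, and edgeR gave an adjusted p of 0.00356. The call was kept in all 15 alternative fits, with adjusted p between 4.29e-08 and 0.0302. Without mutant library 4 the log2 fold change was 0.90.

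The make-up of the SFRP family differed with Sfrp1. Sfrp1 held 49.1 ± 8.59% of the summed CPM of Sfrp1, Sfrp2, Sfrp5 and Frzb in parental and 70.2 ± 6.39% in mutant libraries (SD, n = 4). The share of Frzb was 38.6 ± 7.21% in parental and 21.7 ± 5.36% in mutant libraries. The family sum was 129 to 161 CPM in the parental line and 176 to 212 CPM in the mutant line, without overlap. Frzb itself, at 55.1 ± 11.1 CPM over the parental and 42.0 ± 9.57 CPM over the mutant libraries (SD, n = 4), had a log2 fold change of -0.39 ± 0.20 (SE), or -0.25 without mutant library 4, and was not called.

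Dkk1, the LRP5/6 antagonist, had 12.4, 16.5, 11.6 and 7.16 CPM in parental libraries 1 to 4 and 6.89, 5.23, 9.26 and 4.67 CPM in mutant libraries 1 to 4. Parental library 4 lay among the mutant values. At a log2 fold change of -0.86 ± 0.39 (SE) and an edgeR adjusted p of 0.381, the difference did not pass the threshold. Sfrp2, Sfrp5 and Dkk3 had log2 fold changes of 0.60, -0.49 and 0.09, none of them called. Dkk3 was at 0 in mutant library 4. Without that library the values were 0.73 for Sfrp2, 0.48 for Dkk3 and -0.74 for Dkk1. Notum was below the filter, with at most 14 counts in any library.

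**Figure D3:**
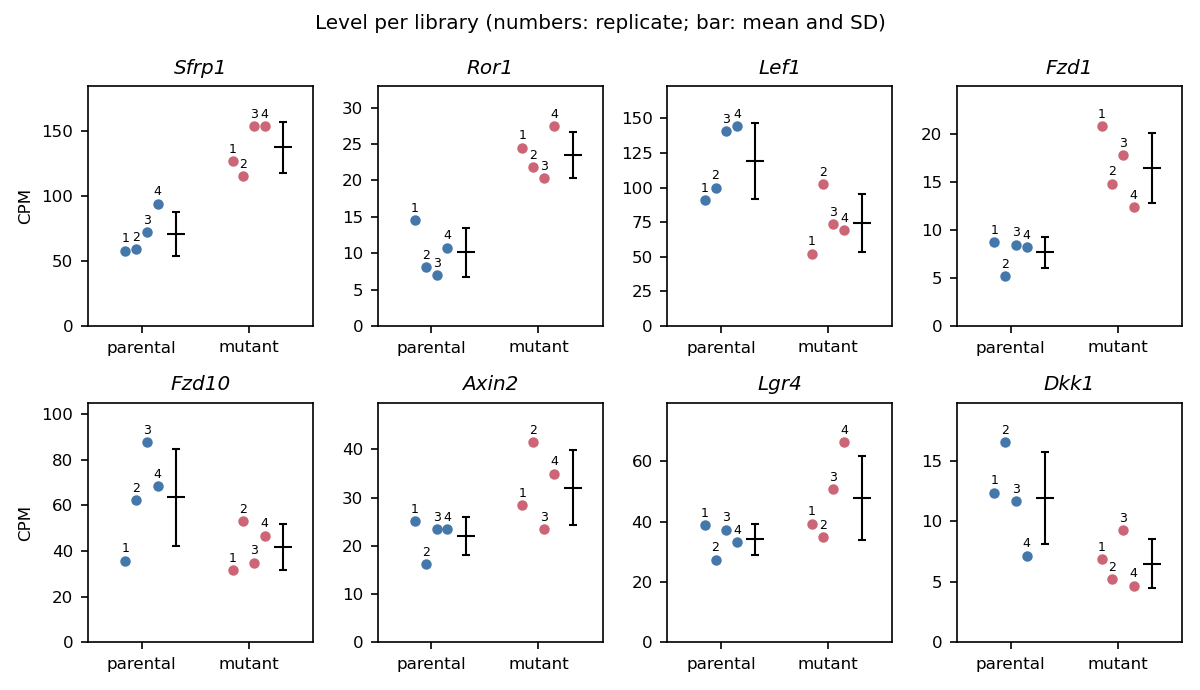
CPM (y axis, from 0) in each parental (blue) and mutant (red) library for the 8 members with an unadjusted p under 0.05, with the mean and SD of each line as bars and replicate numbers above the points. For Sfrp1, Ror1 and Fzd1 every mutant point is above every parental point, whereas the points of Lef1, Fzd10, Axin2, Lgr4 and Dkk1 overlap between the lines.

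Of 5 co-receptors and alternative receptors, Ror1 rose and 0 fell. ROR1 and ROR2 are WNT5A receptors of the β-catenin-independent branch. Ror1 (ENSMUSG00000035305.5, chromosome 4, 100095791 to 100444765, plus strand) had 14.5, 8.07, 7.02 and 10.7 CPM in parental libraries 1 to 4 and 24.5, 21.8, 20.3 and 27.5 CPM in mutant libraries 1 to 4. The highest parental value, in library 1, was below the lowest mutant value, in library 3. The means were 10.1 ± 3.36 CPM over the parental and 23.5 ± 3.16 CPM over the mutant libraries (SD, n = 4), a log2 difference of 1.22 ± 0.29 (SE) with a 95% interval of 0.62 to 1.82, and the edgeR adjusted p was 0.0385. Of 8 repeats with a single library left out, Ror1 was called in 1, without parental library 1, and not in the other 7. The edgeR adjusted p over these 8 repeats ran from 0.0219 to 0.162, and was 0.0631 without mutant library 4, where the log2 fold change was 1.14.

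Ror2, the paralogue of Ror1, had the higher RNA level of the pair in every library. It had 70.6, 65.1, 50.9 and 79.0 CPM in parental libraries 1 to 4 and 42.8, 66.9, 57.8 and 54.4 CPM in mutant libraries 1 to 4, with overlap between the lines and a log2 fold change of -0.26 ± 0.18 (SE). Ror1 made up 13.1 ± 2.74% of the summed ROR level in parental and 30.1 ± 5.74% in mutant libraries. The sum of both genes was 76.5 ± 14.2 CPM and 79.0 ± 8.92 CPM (SD, n = 4), and its ranges overlapped.

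The highest level in this class was that of Ryk, a receptor with a WNT-binding domain and an inactive kinase. It had 177, 185, 173 and 192 CPM in parental libraries 1 to 4 and 193, 158, 241 and 186 CPM in mutant libraries 1 to 4. The mutant values surrounded the narrow parental range, and the log2 fold change was 0.10 ± 0.13 (SE) with a 95% interval of -0.16 to 0.36. Lrp5 and Lrp6, the co-receptors of the β-catenin branch, had parental means of 24.0 ± 5.53 and 84.7 ± 6.93 CPM and mutant means of 19.5 ± 3.53 and 80.7 ± 17.1 CPM (SD, n = 4). Their log2 fold changes were -0.31 ± 0.25 (SE) and -0.07 ± 0.16 (SE), and neither was called.

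All 9 Frizzled receptors were tested, with 4 positive and 5 negative log2 fold changes and 0 called. Fzd2 had the highest RNA level of them in both lines. It had 320.4, 333, 328 and 300.3 CPM in parental libraries 1 to 4 and 227, 318, 307 and 324 CPM in mutant libraries 1 to 4. Mutant library 1 was the lowest, and the other 3 mutant libraries lay within the parental range. Fzd2 held 57.6 ± 3.14% of the summed Frizzled level in parental and 56.6 ± 2.61% in mutant libraries. The log2 difference was -0.13 ± 0.12 (SE), and edgeR gave an adjusted p of 0.736.

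Fzd1 showed the largest fold among the Frizzled receptors. Its level was 8.73, 5.20, 8.46 and 8.22 CPM in parental libraries 1 to 4 and 20.8, 14.8, 17.8 and 12.4 CPM in mutant libraries 1 to 4, so that the lines did not overlap. This was a log2 difference of 1.11 ± 0.32 (SE) with a 95% interval of 0.43 to 1.78, but the edgeR adjusted p was 0.106. DESeq2 called it at an adjusted p of 0.0393, and 0 of the 8 repeats without a library did. Without mutant library 4 the log2 difference was 1.22. Fzd1 made up a small part of the Frizzled sum, at 1.38 ± 0.341% in parental and 3.29 ± 1.18% in mutant libraries.

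Fzd10 lay on the other side of 0. It had 35.8, 62.1, 87.4 and 68.5 CPM in parental libraries 1 to 4 and 31.6, 53.2, 34.9 and 46.7 CPM in mutant libraries 1 to 4. Parental library 1 was within the mutant range and the other 3 parental libraries were above the mutant range of 31.6 to 53.2 CPM. Its log2 fold change was -0.62 ± 0.23 (SE), and the edgeR adjusted p of 0.272 did not pass, although it reached 0.0402 without the filter on low counts. Fzd3, Fzd4 and Fzd7 had mean levels of 79.9, 29.9 and 32.4 CPM over the 8 libraries, and log2 fold changes of -0.12, 0.39 and -0.23. For Fzd4 the value without mutant library 4 was 0.51. Fzd5, Fzd6 and Fzd8 were lower, at 4.19, 6.28 and 13.2 CPM. Their 95% intervals on the log2 scale were -2.28 to 0.88, -0.88 to 1.51 and -0.30 to 1.05, which all include 0. Without mutant library 4 the log2 fold change of Fzd8 was 0.17, against 0.38 with it.

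**Figure D4:**
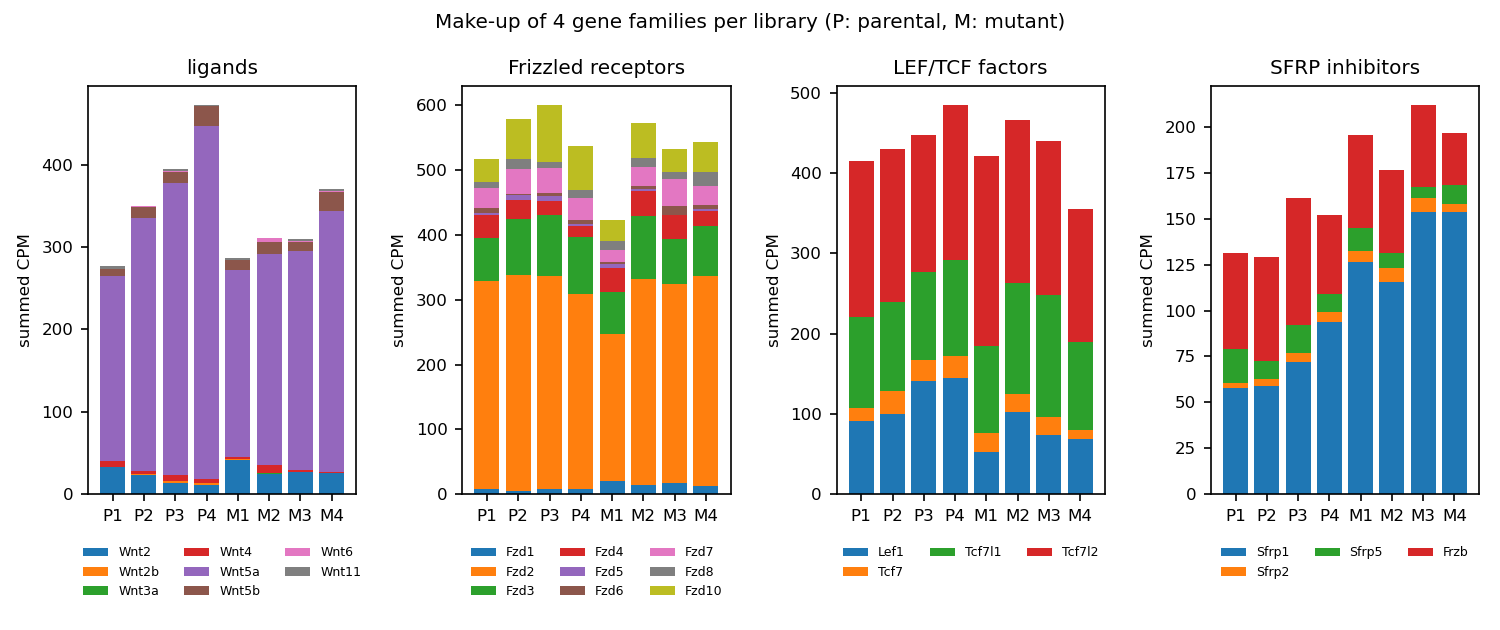
Summed CPM (y axis, from 0) of the WNT ligands, Frizzled receptors, LEF/TCF factors and SFRP inhibitors in parental (P1 to P4) and mutant (M1 to M4) libraries, with each gene as a coloured segment. Wnt5a fills 79.1% to 90.8% of every ligand bar and Fzd2 fills 53.7% to 61.9% of every Frizzled bar, while the Sfrp1 segment is taller in all 4 mutant libraries.

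Among 8 ligand genes, 4 were tested and 0 were called. WNT5A is the main ligand of the β-catenin-independent branch, and its gene had the highest RNA level among the ligands. Wnt5a (ENSMUSG00000021994.15, chromosome 14, 28504750 to 28527448, plus strand) had 226, 307, 354 and 428 CPM in parental libraries 1 to 4 and 226, 256, 265 and 316 CPM in mutant libraries 1 to 4. Parental library 1 and mutant library 1 had nearly equal values, and the mutant values lay in the lower part of the parental range. The mutant level differed by -0.31 ± 0.16 (SE) on the log2 scale with a 95% interval of -0.63 to 0.02, and the edgeR adjusted p was 0.459. Wnt5a held 81.3 to 90.8% of the summed ligand level in parental and 79.1 to 85.6% in mutant libraries.

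Wnt2, a ligand of the cardiac and vascular mesoderm, was the next most abundant. It had 33.5, 23.7, 13.4 and 11.6 CPM in parental libraries 1 to 4 and 42.2, 24.6, 27.1 and 25.6 CPM in mutant libraries 1 to 4. Parental library 1 lay among the mutant values and the other 3 parental libraries below them, and the log2 fold change of 0.54 ± 0.30 (SE) had an edgeR adjusted p of 0.527. Within the parental line the cardiomyocyte marker sum of the same libraries 1 to 4 was 3514, 1886, 848 and 597 CPM, so that the parental library highest for Wnt2 was also the highest for those markers. In mutant libraries 1 to 4 that sum was 785, 751, 917 and 111 CPM, and mutant library 4, the lowest of all, had a Wnt2 level near those of mutant libraries 2 and 3. The endothelial marker sum was 649, 550, 397 and 397 CPM in parental libraries 1 to 4. It was 936, 481, 490 and 452 CPM in mutant libraries 1 to 4. Mutant library 1 was the highest of all libraries for this sum and for Wnt2. The part of cardiomyocytes or endothelial cells in the Wnt2 level was not tested.

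Wnt5b was lower, at 14.7 ± 6.81 CPM over the parental and 15.7 ± 5.32 CPM over the mutant libraries (SD, n = 4), and Wnt4 was at 5.51 ± 1.28 CPM over the parental and 4.06 ± 3.87 CPM over the mutant libraries (SD, n = 4). Their log2 fold changes were 0.09 ± 0.35 (SE) and -0.44 ± 0.62 (SE), and -0.16 and -0.17 without mutant library 4, so that the sign of Wnt5b turned. Wnt2b, Wnt3a, Wnt6 and Wnt11 did not pass the filter on low counts. Their highest counts in a library were 19, 3, 18 and 25. Wnt3a, a canonical ligand of the primitive streak, had 8 counts in all 8 libraries together. Wnt11 had 25, 0, 11 and 4 counts in parental and 10, 1, 14 and 10 in mutant libraries 1 to 4. These 4 genes were therefore not tested in the main fit. The fit with no filter beyond 1 count covered all 47 members and called none of these 4. With so few counts, the lack of a call does not show that the lines were alike.

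The secretion machinery gave no call. WLS carries lipid-modified ligands to the cell surface, and PORCN attaches the lipid. Wls was abundant and steady, with 199, 185, 218 and 189 CPM in parental libraries 1 to 4 and 201, 195, 175 and 224 CPM in mutant libraries 1 to 4. Its ranges overlapped, and the difference of 0.00 ± 0.11 (SE) on the log2 scale, with a 95% interval of -0.23 to 0.24, changed sign between fits. Porcn, an X-linked gene, had 9.64, 10.8, 8.62 and 13.1 CPM in parental libraries 1 to 4 and 7.06, 10.2, 5.81 and 0 CPM in mutant libraries 1 to 4. Mutant library 4 moved its log2 fold change, which was -0.84 ± 0.61 (SE) with all libraries and -0.45 without that library, with edgeR adjusted p of 0.645 and 0.703.

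R-spondins and their LGR receptors amplify WNT signals by protecting Frizzled receptors from degradation. Of 3 members, 2 were tested and 0 called. Lgr4 had 38.9, 27.4, 37.3 and 33.3 CPM in parental libraries 1 to 4 and 39.3, 34.9, 50.9 and 66.3 CPM in mutant libraries 1 to 4. Mutant libraries 1, 3 and 4 were above all parental libraries, library 1 by a narrow margin, and mutant library 2 was among them, with a log2 fold change of 0.48 ± 0.21 (SE) and an edgeR adjusted p of 0.374. With mutant library 4 left out, the log2 fold change of Lgr4 was 0.28. Rspo3 had 60.9, 64.4, 71.3 and 72.1 CPM in parental libraries 1 to 4 and 76.9, 68.0, 47.6 and 42.6 CPM in mutant libraries 1 to 4. Its mutant libraries lay on both sides of the parental range, and the log2 fold change was -0.19 ± 0.18 (SE), or -0.07 without mutant library 4. Lgr5, a stem cell receptor and WNT target, had at most 19 counts and was not tested.

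In the nuclear branch 0 of 5 genes were called, and Lef1 came nearest. LEF1 and the TCF proteins bind DNA and recruit β-catenin, and Lef1 is itself a target of the pathway. Lef1 (ENSMUSG00000027985.14, chromosome 3, 131110471 to 131224356, plus strand) had 90.9, 99.9, 141 and 145 CPM in parental libraries 1 to 4 and 52.2, 102, 73.4 and 69.0 CPM in mutant libraries 1 to 4. Mutant library 2 lay inside the parental range and the other 3 mutant libraries below it. The means were 119 ± 27.5 CPM over the parental and 74.3 ± 20.9 CPM over the mutant libraries (SD, n = 4), a log2 difference of -0.68 ± 0.19 (SE) with a 95% interval of -1.08 to -0.28, and the edgeR adjusted p was 0.0935. It was called by DESeq2 at an adjusted p of 0.0304 and by edgeR without the filter on low counts at 0.000618. Leaving out mutant library 2 gave an edgeR adjusted p of 0.0213, and the other 7 repeats without a library gave no call. An annotated transcript overlaps Lef1 on the same strand with 9 to 26 counts per library. How reads that overlap both were counted is not given. In all, 7 members have a counted overlapping gene on the same strand. For Tcf7l1, 1 such transcript had 24 to 70 counts per library.

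The other 3 factors had smaller differences. Tcf7l2, the most abundant, had 195, 190.3, 170.3 and 193 CPM in parental libraries 1 to 4 and 236, 202, 191 and 165 CPM in mutant libraries 1 to 4. The mutant values surrounded the parental ones, with a log2 fold change of 0.09 ± 0.12 (SE) and a 95% interval of -0.16 to 0.34. Tcf7l1, mainly a repressor in stem cells, had 113 ± 4.27 CPM over the parental and 127 ± 21.4 CPM over the mutant libraries (SD, n = 4) and a log2 fold change of 0.17 ± 0.13 (SE). Tcf7 had 24.7 ± 5.65 CPM over the parental and 20.1 ± 6.46 CPM over the mutant libraries (SD, n = 4) and a log2 fold change of -0.29 ± 0.28 (SE), or -0.08 without mutant library 4. Lef1 made up 26.6 ± 4.72% of the summed LEF/TCF level in parental and 17.6 ± 4.09% in mutant libraries, with ranges of 21.9 to 31.4% and 12.4 to 22.0% that touched. Ctnnb1, which encodes β-catenin, was counted at 11.5 to 25.3 CPM in parental and 19.4 to 34.6 CPM in mutant libraries, with a log2 fold change of 0.35 ± 0.28 (SE), or 0.16 without mutant library 4.

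Of the 3 feedback and target genes among the members, 1 had a positive and 2 a negative log2 fold change, and 0 were called. In the wider list of other WNT targets, 7 of 9 tested genes had a negative value, with a median of -0.48. In that list 1 was called, lower, and 6 of 9 (66.7%) had an unadjusted p under 0.05, of which 5 were lower, beside 11.9% of all genes. Every mutant library was below every parental library for 3 of the 9 (33.3%) and above for 0, beside 7.52% of all genes separated in either direction. That list too was drawn up with earlier results of these data known, so its shares describe the list. AXIN2 is the scaffold that rebuilds the β-catenin destruction complex and is a widely used readout of canonical signalling. Axin2 had 25.1, 16.1, 23.5 and 23.4 CPM in parental libraries 1 to 4 and 28.4, 41.4, 23.4 and 34.9 CPM in mutant libraries 1 to 4. Mutant libraries 1, 2 and 4 were above all parental libraries and mutant library 3 was within them, with a log2 fold change of 0.54 ± 0.23 (SE) and an edgeR adjusted p of 0.36. Sp5, a target that encodes a repressor of other WNT targets, had 4.36, 4.49, 9.57 and 5.69 CPM in parental libraries 1 to 4 and 2.69, 5.88, 2.36 and 0 CPM in mutant libraries 1 to 4. Its counts were low and 0 in mutant library 4, so that its log2 fold change of -1.12 ± 0.74 (SE) became -0.74 without that library. Nkd1, a feedback inhibitor that binds Dishevelled, had 20.7 ± 7.64 CPM over the parental and 20.1 ± 5.48 CPM over the mutant libraries (SD, n = 4) and a log2 fold change of -0.05 ± 0.29 (SE), or -0.23 without mutant library 4.

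All 5 planar polarity members were tested and 0 were called. Vangl2, a transmembrane core component whose loss causes outflow tract and neural tube defects, had 129.8, 125, 128 and 129.8 CPM in parental libraries 1 to 4 and 91.7, 136, 145 and 119 CPM in mutant libraries 1 to 4. The parental libraries were within a few CPM of each other and the mutant libraries spread on both sides of them. The log2 difference of -0.06 ± 0.14 (SE) had a 95% interval of -0.35 to 0.23. Vangl1, its paralogue, had 80.4, 61.0, 61.3 and 65.3 CPM in parental libraries 1 to 4 and 58.8, 49.9, 62.3 and 44.5 CPM in mutant libraries 1 to 4. Mutant library 3 lay within the parental range and the other 3 below it, with a log2 fold change of -0.31 ± 0.16 (SE) (95% interval -0.65 to 0.03) and an edgeR adjusted p of 0.481. The 95% intervals were -0.46 to 0.09 for Ptk7, a polarity co-receptor, -0.19 to 0.44 for Prickle1, a cytoplasmic core component, and -0.75 to 0.79 for Celsr1, an atypical cadherin, whose log2 fold change was 0.02 with all libraries and -0.28 without mutant library 4. Each of these 5 intervals, from all libraries, leaves out a 2-fold change in either direction.

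**Figure D5:**
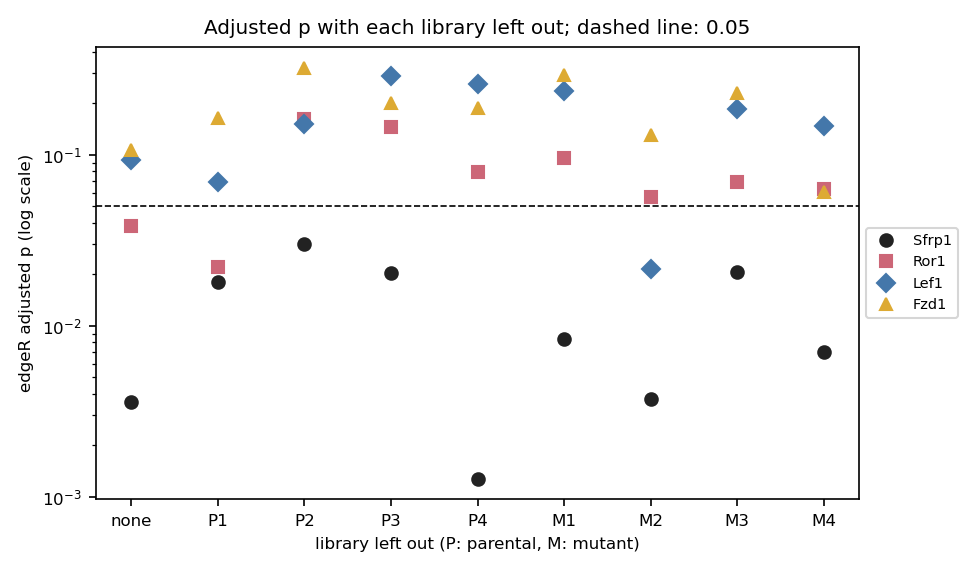
The edgeR adjusted p (y axis, log scale) of Sfrp1, Ror1, Lef1 and Fzd1 with all 8 libraries and with each parental (P) or mutant (M) library left out; the dashed line is the threshold of 0.05. Sfrp1 stays under the line in all 9 fits, Ror1 in 2, Lef1 in 1 and Fzd1 in 0.

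A further 100 genes of the pathway, outside the members, were taken from the same fit. They were also chosen with earlier results of these data known. Of these, 75 were tested, 2 were called higher and 1 lower, which is 4.00% beside the background of 1.42%. Their median log2 fold change was 0.00, with 37 positive and 38 negative values. Libraries did not overlap for 9 of the 75 genes (12.0%), beside 7.52% of all genes. Of 11 other ligand genes, 10 did not pass the filter on low counts. Of these 10, Wnt9b was at 0 in all libraries and the other 9 had counts, up to 15 in a library (Wnt9a). Wnt3, the ligand of that group that was tested, had 4.03 ± 1.67 CPM over the parental and 1.42 ± 0.562 CPM over the mutant libraries (SD, n = 4). The lines overlapped, and the log2 fold change of -1.49 ± 0.72 (SE) had an edgeR adjusted p of 0.431.

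Gpc4, a glypican that binds WNT ligands at the cell surface and takes part in polarity signalling, had the largest change among the called genes of this list. Gpc4 (ENSMUSG00000031119.4, chromosome X, 52053021 to 52165252, minus strand) had 6.00, 1.44, 4.79 and 2.74 CPM in parental libraries 1 to 4 and 21.7, 17.0, 12.9 and 17.9 CPM in mutant libraries 1 to 4. The lines did not overlap. Its log2 difference was 2.20 ± 0.42 (SE) at an edgeR adjusted p of 0.00835, and the call was kept in all 15 alternative fits with adjusted p of up to 0.0441.

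Tle5, listed as Aes in the annotation, encodes a short Groucho-family protein that opposes TCF-bound co-repressors. It had 17.1, 24.8, 17.4 and 11.2 CPM in parental libraries 1 to 4 and 49.2, 37.9, 38.3 and 30.8 CPM in mutant libraries 1 to 4. Every mutant value was above every parental value. The log2 difference was 1.15 ± 0.25 (SE) at an edgeR adjusted p of 0.0205, but 5 of the 8 repeats without a library gave no call, with adjusted p of up to 0.0898. These were the repeats without parental library 1, 3 or 4 and without mutant library 1 or 3.

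Cdx2, a caudal homeobox gene that responds to WNT in posterior mesoderm, was the gene that fell. It had 103, 138, 109 and 181 CPM in parental libraries 1 to 4 and 59.1, 99.4, 67.4 and 69.0 CPM in mutant libraries 1 to 4. Parental values were all higher, and the log2 difference was -0.85 ± 0.19 (SE) at an edgeR adjusted p of 0.0236. There was no call in 4 of the 8 repeats without a library, those without parental library 2 or 4 and without mutant library 1 or 3, at up to 0.0979. Scrib, a polarity scaffold, had 53.1 ± 9.46 CPM over the parental and 34.7 ± 7.05 CPM over the mutant libraries (SD, n = 4). The lines did not overlap, by a narrow margin, but the edgeR adjusted p of 0.159 did not pass, with a log2 fold change of -0.61 ± 0.20 (SE).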

How the data were processed

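The members and gene lists were chosen with earlier results of these data known. Per the labels, polyA RNA of 4 libraries per line was prepared with the QuantSeq 3′ protocol, and per the submitters' processing notes STAR, featureCounts and build mm10 were used; versions, annotation and filters are not given in the sources used here. The authors deposited whole-number counts per gene, unnormalized, 1 column per library, and the table's name gives forward-strand counting. Identifiers were matched without version to GENCODE M21 symbols (55141 of 55487), whose GRCm38 coordinates are printed.

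Genes were filtered with filterByExpr of edgeR 4.0.16 at its defaults, which kept 13280 genes. Libraries were scaled by TMM and compared by the quasi-likelihood F test (glmQLFit, glmQLFTest) in R 4.3.3 with the line as the only term, and p-values were adjusted by Benjamini-Hochberg over all tested genes. Standard errors and 95% intervals of log2 fold changes come from the F statistic. CPM use these TMM-scaled totals. Floors cover counting error only, since no label mentions molecular identifiers. The procedure was run on simulated counts in which only genes above a minimum mean count were changed. That run does not speak for scarce members. Within a line no pair of libraries agreed within sampling noise (chi-square per degree of freedom 7.04 to 24.2 in 12 pairs). Alternatives were RLE scaling, library size alone, no filter beyond 1 count, a mean count of 10 or more, DESeq2 1.42.0, limma-voom (limma 3.58.1), the replicate number as a block, and leaving out each library.

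Values in every library are given for members with an unadjusted p under 0.05 or without overlap. They are also given for the most abundant and most changed tested member of each role. From the list of further pathway genes, those called or among the 5 smallest p were taken. The called ones are given in every library, and Scrib by its mean and SD. One result of that list is not reported here. Ror2 and Wnt11 were added after their values were seen.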

Additional observations from a re-analysis of the deposited data

Results flagged for a closer look

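In 5 of 92 groups of 4 libraries, covering 41 tested members and 5 further pathway genes in each line, 1 library lay far from the other 3; chance alone gives about 1 in 20 groups. Wnt2 was at 42.2 CPM in mutant library 1, against 24.6 to 27.1 CPM in the other mutant libraries. Wnt4 was at 9.81 CPM in mutant library 2, against 1.37 to 2.69 CPM. Fzd1 was at 5.20 CPM in parental library 2, against 8.22 to 8.73 CPM. In mutant library 4, Fzd4 was at 23.9 CPM against 36.8 to 37.5 CPM, and Tcf7 was at 10.4 CPM against 22.4 to 24.2 CPM. Without mutant library 4 the log2 fold change was 0.51 for Fzd4, against 0.39 with all libraries, and -0.08 for Tcf7, against -0.29.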

How the results depend on the processing

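Of 188 genes called with edgeR, 52.7% were higher in the mutant line; with library size alone 157 genes were called and 63.7% were higher, and with limma-voom 252 and 44.4%. Without a filter beyond 1 count 439 genes were called, and 4 members and 5 further pathway genes. DESeq2 called 405 genes and 4 members, adding Lef1 and Fzd1 to Sfrp1 and Ror1. Leaving out single libraries gave 103 to 235 genes, 1 to 2 members and 1 to 4 further pathway genes. The member count was 1, Sfrp1, in 6 of these 8 fits, those without parental library 2, 3 or 4 or mutant library 1, 3 or 4; without mutant library 2 it was Sfrp1 and Lef1. The count of all genes moved by over 1.5 times without parental library 2 (103), parental library 3 (104) or mutant library 3 (116). The other repeats, also with 1 library fewer, gave 131 to 235 genes. The cause of these moves was not tested. The Tbx1 call was kept in all 15 fits.

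Same-numbered libraries of the lines correlated in their deviations at -0.033 to 0.106, with 3 of 8 libraries closest to their own number, so the numbers were not taken to pair the samples. A replicate block gave 234 genes and 3 members called, the third being Lef1 at an adjusted p of 0.0495. Over the 15 fits 11 of the 41 tested members took both signs. Of these, 4 were given in every library, each with a main value near 0: Wls had -0.0056 without the filter and -0.0087 with limma-voom, and -0.058 to 0.054 over the fits leaving out a library. Ryk ranged from -0.028 to 0.18 over those fits, Tcf7l2 from -0.0089 to 0.16 and Vangl2 from -0.16 to 0.056. The other 7 were Wnt5b, Fzd6, Lrp6, Dkk3, Nkd1, Celsr1 and Prickle1, with ranges as wide as -0.31 to 0.57 for Dkk3 and -0.26 to 0.65 for Fzd6. Scarce members had standard errors of up to 0.81 on the log2 scale (Dkk3). For Dkk3, which was at 0 in mutant library 4, the standard error was 0.61 without that library. Standard errors of this size limit what these data can show for scarce members.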

Other observations

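Several pathway genes outside the members had an unadjusted p under 0.05 without passing the adjusted threshold; they were chosen after their values were seen. Lower in the mutant line, from the list of other WNT targets, were Ccnd1, a G1 cyclin, at 75.2 ± 13.8 CPM over the parental and 50.5 ± 12.3 CPM over the mutant libraries (SD, n = 4), Cdx4, a caudal gene, and Tnfrsf19, at 38.6 ± 8.73 CPM over the parental and 27.6 ± 5.37 CPM over the mutant libraries (SD, n = 4). Their edgeR adjusted p were 0.169, 0.266 and 0.382. Cdx4 had 28.0, 27.8, 53.5 and 42.4 CPM in parental libraries 1 to 4 and 18.6, 32.2, 1.63 and 3.30 CPM in mutant libraries 1 to 4, so that mutant libraries 3 and 4 lay far below mutant libraries 1 and 2, and library 2 lay within the parental range. Myc lay on the other side, at 6.19 ± 3.52 CPM over the parental and 13.0 ± 6.54 CPM over the mutant libraries (SD, n = 4), with an edgeR adjusted p of 0.414.

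Counts of a pair of scarce secreted regulators were as follows, neither of them called. Dkk2, an LRP5/6 antagonist, had 3 to 4 counts in each parental library and 10 to 27 in each mutant library, with an edgeR adjusted p of 0.174. Rspo2, a second R-spondin, had 3 to 24 counts in parental and 18 to 76 in mutant libraries, which overlapped, with an edgeR adjusted p of 0.241. Jup, which encodes the β-catenin relative plakoglobin, had 49.0 ± 10.4 CPM over the parental and 67.6 ± 7.42 CPM over the mutant libraries (SD, n = 4) without overlap between the lines and an edgeR adjusted p of 0.264.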
